A study of Brassica oleracea var. italica with 48 samples.

Results

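Among the 60586 features measured in broccoli, 91 were abundant in roots, nearly silent in leaves and little changed in roots by the loss of potassium. A member had a mean of at least 30 TPM (reads per length of the feature, scaled to a fixed total in each library) over the 12 control root libraries and less than 0.5 TPM in each of the 24 leaf libraries. On days 1, 3 and 6 its starved and control root means also differed by less than 0.5 on the log2(TPM + 1) scale. This difference, starved minus control, is called d below. Members were thus chosen by their level in control roots, their leaf maximum and d, so their values in those respects are a description, and nothing is supported with them.

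Broccoli (Brassica oleracea var. italica) is a cabbage relative, and all plants were wild type. After 6 days on MS plates, a standard plant medium, the seedlings spent 7 days in liquid culture supplied with K2SO4 at 2 mM, and a day had 16 h of light and 8 h of darkness. Starved plants then went to a medium that lacked potassium, and control plants did not. Roots and leaves were sampled on days 1, 3 and 6, which gave 12 groups of 4 libraries: starved and control roots and starved and control leaves on each day, lettered a to d within a group. Whether the 4 libraries of a group came from separate plants is not given in the labels. The p-values therefore cover the spread among these libraries alone, which may be technical.

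Roots take up water and mineral ions, and genes that are active in roots and silent in leaves commonly encode ion transporters, enzymes that build the walls and barriers of root cells, and enzymes of root defence compounds. Plant cells hold more potassium than any other inorganic cation, and its loss is known to raise the expression of uptake systems in roots. Of the 60586 feature IDs, 0 matched the 53125 genes of the RefSeq table used here, so members are given by ID and no role is assigned to any of them. Tissue markers, lists of potassium and nutrient genes and the sequences of the members were for the same reason not analysed here.

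The mean of a member over the 12 starved root libraries was 26.1 to 323 TPM, with a median of 50.9 TPM, and over the 12 control root libraries 30.25 to 333 TPM, with a median of 48.8 TPM. Means of at least 100 TPM in control roots were found for 10 members, 60 to 100 TPM for 21 and 30 to 60 TPM for 60. Together the 91 held 0.488 to 0.671% of the TPM of a root library. Each rested on at least 105 recovered reads in every root library. In whole roots, fewer cells of a type and less RNA per cell cannot be told apart.

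Bo1g123520 was the most abundant member. Its starved roots held 379, 369, 371 and 384 TPM on day 1. On day 3 they held 339, 348, 411 and 234 TPM, and on day 6 they held 232, 253, 194 and 366 TPM. Control roots of day 1 had 241, 418, 435 and 403 TPM, those of day 3 had 385, 304, 349 and 343 TPM, and those of day 6 had 209, 351, 211 and 349 TPM. The starved and control libraries overlapped on every day, and d was 0.0045, -0.05 and -0.10 on days 1, 3 and 6. Control library a of day 1 stood far below the other 3 of its group. Bo9g161390 followed, with a lowest value of 157, a median of 239 and a highest of 269.9 TPM over the 24 root libraries. Bo1g124880 lay between 119 and 266 TPM, with a median of 216 TPM. For both, the lowest of all root libraries was control a of day 1.

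Behind them, Bo9g166250 had a control root mean of 178 TPM, Bo6g027630 of 164 TPM and Bo7g084220 of 154 TPM. In Bo7g084220 d was positive on each day, at 0.22, 0.28 and 0.43. Bo00886s020, whose ID carries an s where those of most members carry a g, averaged 119 TPM in control roots. Its d was negative on each day, at -0.26, -0.12 and -0.27. Bo5g130440, at 117 TPM in control roots, was the member nearest to the limit on d. It held 110.5, 95.6, 98.3 and 78.2 TPM in starved roots of day 1, against 156, 127, 111 and 149 TPM in control roots of day 1. All 4 starved libraries lay below the lowest control library, and d was -0.499, just inside the limit.

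**Figure D1:**
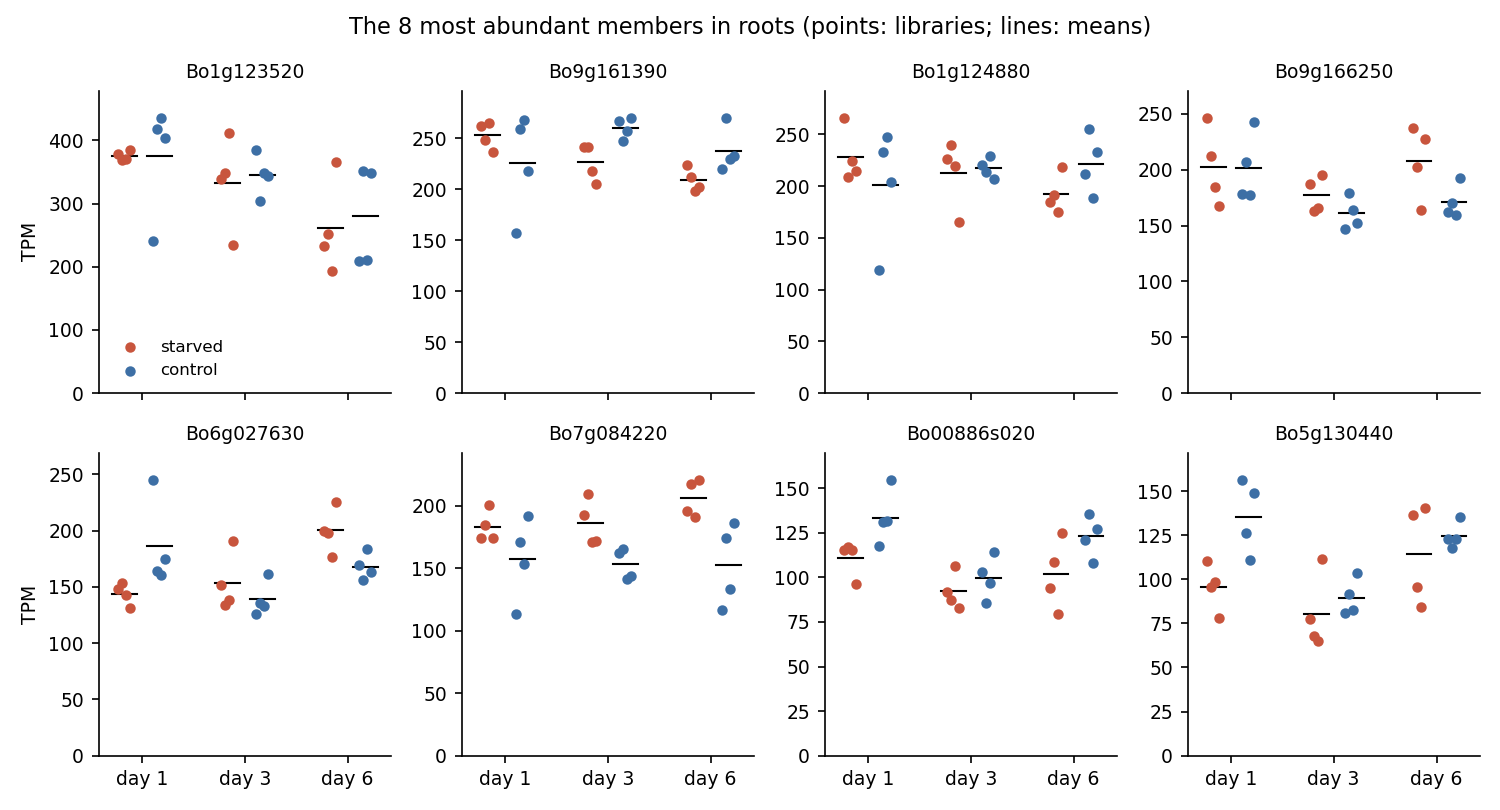
TPM (vertical axis, linear from 0) of the 8 members with the highest control root mean, by day, with starved roots left of control roots. Points are libraries and lines are group means; Bo1g123520 spans 194 to 435 TPM and Bo5g130440 shows the starved libraries of day 1 below the control ones.

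The rule sets a limit on d, a difference in the log2 of group means. The effect in limma is a difference in means of log2(TPM + 1), which is close to d but not the same. The rule sets no limit on its error, but the error is not independent of the rule, since features of small spread meet a limit on d more easily. The median standard error was 0.17 for members. It was 0.21 for the 356 features that met the limits on root and leaf levels, members included. In limma's fit of the 24 root libraries the standard error of a member's starvation effect was 0.093 to 0.40 on the log2 scale, with a median of 0.17. The margin on either side of the effect in its 95% interval was 0.19 to 0.83, with a median of 0.35, beside a limit of 0.5 on d. The effects themselves were limited by the rule, so intervals centred on them do not cover at that rate and are not given.

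On each day the members were divided between both directions of d. Starved roots were higher for 49 and lower for 42 on day 1, higher for 48 and lower for 43 on day 3, and higher for 52 and lower for 39 on day 6. The sign was the same on all 3 days for 40 members, 25 of them higher and 15 lower in starved roots. The median of d was 0.0076, 0.035 and 0.040 on days 1, 3 and 6, and 26 members stayed within 0.25 of 0 on every day.

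A d under the limit did not keep every member out of the calls of limma in starved against control roots, made at a Benjamini-Hochberg adjusted p under 0.05 over all 29422 features tested. The rule limits this contrast through d, so these calls are no test of the members and nothing is read from their counts. On day 1 limma called 1 member higher and 0 lower in starved roots, beside 8.40% of all features (4.15% higher, 4.25% lower). On day 3 it called 1 higher and 2 lower, beside 7.69% of all features (1178 features higher and 1085 lower, which is 3.69%). On day 6 it called 4 higher and 0 lower, beside 15.6% of all features (2647 features higher and 1942 lower, which is 6.60%). The following names were chosen after their values were seen. Bo3g081320 was higher in starved roots on day 1 (d 0.43), and Bo5g058590 on day 3 (d 0.49). Bo1g090280 and Bo7g082060 were lower on day 3 (d -0.44 and -0.41). Bo4g194820, Bo4g195530, Bo7g014500 and Bo7g084220 were higher on day 6 (d 0.47, 0.49, 0.47 and 0.43). With TPM rescaled by medians of ratios, day 1 gave 0 higher and 1 lower beside 8.91% of all features, day 3 gave 1 and 1 beside 7.79% and day 6 gave 4 and 3 beside 17.3%, and the median of all features on day 1 was 0.0052 in place of 0.11. The day 1 count was 0 without starved library c or d or control d, beside 6.11, 6.67 and 6.39% of all features, and 2 without control a, beside 6.98%. The day 3 count was 5 without starved b or control b, beside 7.29 and 7.11%, and 1 without control d, beside 4.95%. The day 6 count was 7 without starved c, beside 14.0%.

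Bo5g030820 varied least of all members over the 24 root libraries, with an SD of 0.12 on the log2(TPM + 1) scale. Starved roots of day 1 had 32.1, 34.37, 38.4 and 35.3 TPM, those of day 3 had 32.8, 32.8, 34.17 and 30.9 TPM, and those of day 6 had 33.7, 35.8, 33.2 and 32.8 TPM. Control roots of day 1 had 28.5, 34.02, 36.7 and 34.5 TPM, those of day 3 had 31.5, 27.7, 29.9 and 34.05 TPM, and those of day 6 had 33.6, 29.98, 27.6 and 30.04 TPM. No library of the 24 was below 27.6 or above 38.4 TPM. Bo1g031900 had an SD of 0.14, and Bo1g017900 and Bo4g024640 each 0.17, at control means of 48.8, 38.0 and 73.4 TPM. Over all members this SD ran from 0.12 to 0.74, with a median of 0.29.

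At the other end stood Bo5g027000, with an SD of 0.74. Its libraries ranged from 12.4 to 81.7 TPM in starved roots and from 17.7 to 91.1 TPM in control roots. The starved libraries of day 6, at 61.0, 81.7, 58.4 and 48.4 TPM, lay inside the control range of that day, which spanned 21.1 to 91.1 TPM. Bo8g059790 had an SD of 0.59 and its lowest value, 10.98 TPM, in control a of day 1, against 37.3 to 67.4 TPM in the other 3 controls of that day. Bo9g171930 and Bo7g040520 followed, at 0.53 and 0.47. In Bo7g040520 control a of day 1 held 28.5 TPM and the other 3 held 82.5 to 92.4 TPM. The d of these members was under the limit while their libraries differed widely.

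Control a of day 1 and starved c of day 6 stood lowest against their groups. In starved c of day 6 the median deviation of the members from the group mean was -0.24 on the log2(TPM + 1) scale and 11 of 91 lay above the mean, while that of all tested features was -0.07. In control a of day 1 the members had a median of -0.23, with 26 of 91 above the mean, and all tested features had -0.30. The SD over members was widest there, at 0.45. Control a of day 1 had the lowest limma array weight, an estimate of library quality, at 0.082, and starved d of day 3 was the other root library under 0.2, at 0.17. In these, features of short coding length stood higher relative to the group mean, with a Spearman rho of deviation and length of -0.54 and -0.47 across features, which are not independent replicates. Over all 24 root libraries this rho ran from -0.54 to 0.51. Control a and c of day 6 had -0.40 and -0.47, control b of day 6 had 0.51, and control b and c of day 1 had 0.46 and 0.44. The part of these libraries in the values of single members was not tested. Without the 2 libraries of array weight under 0.2 the rule found 98 members, 84 of them among the 91.

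**Figure D2:**
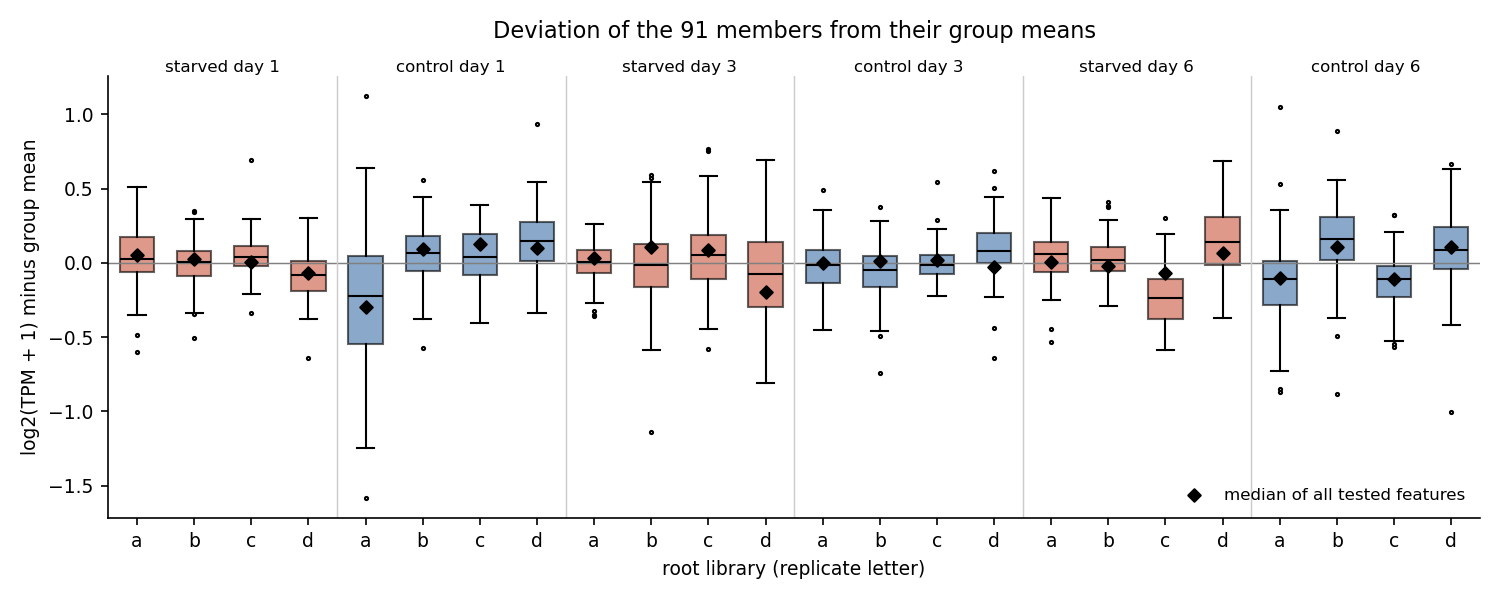
Deviation of log2(TPM + 1) from the group mean (vertical axis) of the 91 members in each of the 24 root libraries, starved left of control on each day. Boxes span the quartiles with the median as a line, whiskers reach 1.5 times the quartile range, and diamonds mark the median of all tested features; control a of day 1 has the widest spread, with an SD of 0.45 and a member median of -0.23, and starved c of day 6 the lowest median, at -0.24.

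The rule set no limit on the change of the members between days in control roots, and this change was tested. The control libraries tested did enter the rule, through the root level and d. The median SD within groups was 0.24 for members and 0.34 for the 265 features that missed only the limit on d. The calls are therefore not independent of the rule. For day 6 against day 1, limma called 7 of 91 members, all lower on day 6, among 1839 of 29422 features (6.25%). The share of members was 7.69%, close to that of all features. Of the 356 features that met the limits on root and leaf levels, members included, 14.9% were called. Of the 6184 others as abundant in roots it was 7.60%. Lower on day 6 were 3.98% of all features and higher 2.27%. The median log2 fold change was -0.12 for the members and -0.07 for all features. The 4 libraries of day 6 did not overlap the 4 of day 1 for 10 members, against 10.7% of all features. Without the 2 libraries of low array weight it called 25 members, 3 higher and 22 lower (27.5%), among 6015 features (20.5%). The comparisons of days share control libraries with each other and with d.

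Bo8g059420 was lower on day 6 than on day 1. Its control libraries of day 6 had 45.1, 44.99, 34.14 and 37.5 TPM, and those of day 1 had 63.0, 63.2, 71.9 and 73.7 TPM. All 4 values of day 6 lay below all 4 of day 1, and the log2 fold change was -0.74 with an SE of 0.15 (limma, adjusted p = 0.00405). On day 3 its controls held 51.2, 33.0, 48.8 and 41.2 TPM, again below day 1 (log2 fold change -0.65 with an SE of 0.15, limma adjusted p = 0.0277). The starved libraries followed the same course without a test, at 74.5 ± 12.85, 52.8 ± 6.11 and 40.97 ± 6.27 TPM on days 1, 3 and 6 (SD, n = 4 each). The day 3 call was lost with only the 2 groups in the fit and without control c or d of day 1 or control b or d of day 3 (limma, adjusted p up to 0.175 over all settings tried).

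Bo4g187180 had the largest fall. Its control libraries of day 6 had 18.1, 15.7, 25.3 and 35.5 TPM, and those of day 1 had 40.03, 40.03, 40.3 and 62.1 TPM. The groups did not overlap, and the log2 fold change was -0.96 with an SE of 0.22 (limma, adjusted p = 0.00972). With only the 2 groups in the fit its adjusted p in limma was 0.0947. Bo9g165750 had 14.7, 36.9, 31.5 and 31.5 TPM in control roots of day 6, against 47.1, 47.9, 67.3 and 48.7 TPM in those of day 1, with a log2 fold change of -0.92 and an SE of 0.24 (limma, adjusted p = 0.0259). Every control library of day 6 was below every one of day 1 here as well. The call of Bo9g165750 was lost with only the 2 groups in the fit and without control c or d of day 1 or control a of day 6 (limma, adjusted p up to 0.125 over all settings tried).

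Bo9g171930 held 50.4, 73.3, 51.2 and 51.1 TPM in control roots of day 6 and 75.8, 110.45, 99.1 and 131 TPM in those of day 1. The groups did not overlap, and the log2 fold change was -0.86 with an SE of 0.20 (limma, adjusted p = 0.0109). The call was lost with only the 2 groups in the fit and without control d of day 1 (limma, adjusted p up to 0.0518 over all settings tried). In starved roots it held 147 ± 19.7 TPM on day 1 and 70.4 ± 23.2 TPM on day 6 (SD, n = 4 each). Its d of day 1, at 0.496, was next to the limit. The other 3 members called, Bo5g020370, Bo7g059590 and Bo7g082060, were named after their values were seen. Their log2 fold changes were -0.56, -0.68 and -0.41, and the libraries of Bo7g059590 overlapped. Each of the 3 lost the call under several of the alternatives.

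**Figure D3:**
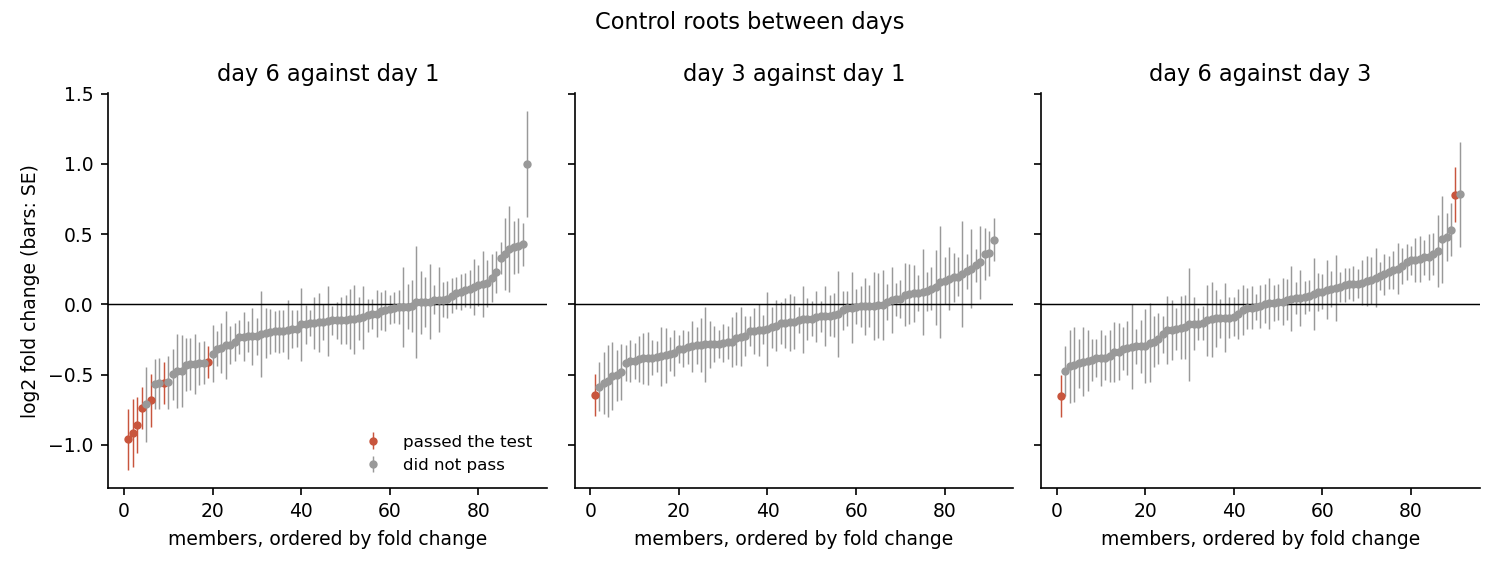
log2 fold change (vertical axis, bars are standard errors) of the 91 members between days in control roots, each panel ordered from the lowest to the highest member. Members that passed the test are coloured: 7 for day 6 against day 1, 1 for day 3 against day 1 and 2 for day 6 against day 3.

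For day 3 against day 1 limma called 1 member, Bo8g059420, which was lower, against 1.46% of all features (0.683% lower). For 12 members the 4 libraries of day 3 did not overlap the 4 of day 1, against 9.11% of all features, and the median log2 fold change was -0.13 for members and 0.08 for all features. For day 6 against day 3 it called 1 member higher and 1 lower (2.20% of members), against 8.67% of all features (2.23% higher, 6.45% lower). Of the 356 features that met the limits on root and leaf levels, 2.81% were called for day 3 against day 1 and 16.9% for day 6 against day 3. For 14 members the 4 libraries of day 6 did not overlap the 4 of day 3, against 21.3% of all features. Members had a median change of -0.01 and all features of -0.14. Rescaling by medians of ratios took that median of all features to -0.0016 and that of the members to 0.16, and the calls became 5 higher and 1 lower, beside 8.62% of all features.

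Bo4g013390 was the member that rose between days 3 and 6. Its control libraries of day 6 had 61.1, 69.1, 74.6 and 85.1 TPM, and those of day 3 had 34.9, 37.1, 40.2 and 56.7 TPM. There was no overlap, and its log2 fold change was 0.78 with an SE of 0.19 (limma, adjusted p = 0.0176). The call was lost without control a, b or c of day 3 or control d of day 6 (limma, adjusted p up to 0.0640 over all settings tried). Bo8g100800 moved the other way, with 23.1, 28.9, 29.1 and 25.3 TPM in control roots of day 6, against 43.2, 45.9, 39.3 and 40.6 TPM in those of day 3. All values of day 6 lay below those of day 3, and its log2 fold change was -0.65 with an SE of 0.15 (limma, adjusted p = 0.0119).

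In all, 9 members passed in at least 1 comparison of days and 82 in none. The share of all features that passed in at least 1 was not counted, so nothing is read from these counts. The fold change with the largest size among members that did not pass belonged to Bo5g027000, at 1.00 with an SE of 0.38 for day 6 against day 1 (limma, adjusted p = 0.133). Single libraries moved the counts. Without control a of day 1 the 7 calls of day 6 against day 1 became 15, 2 higher and 13 lower, beside 11.5% of all features. They became 3 without control d of day 1, beside 3.57% of all features, and 4 without control c of day 1 or control a or c of day 6, beside 3.99, 3.21 and 4.04%. The share of members was then 3.30 and 4.40%. For day 3 against day 1 the count was 3 without control a of day 1, beside 1.21% of all features, and 0 without control d of day 1 or control b or d of day 3, beside 0.759, 1.40 and 0.814%. For day 6 against day 3 it was 1 without control a, b or c of day 3 or control d of day 6, beside 3.73, 4.60, 3.73 and 5.88%.

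The summed TPM of the 91 members was 6186 ± 238, 5639 ± 182 and 5760.5 ± 654 in starved roots and 6169.6 ± 602, 5546 ± 230.4 and 5538 ± 538 in control roots on days 1, 3 and 6 (SD, n = 4 each). Starved and control ranges overlapped on each day. Between days 6 and 1 the control mean differed by -631 TPM. The difference was -916 TPM without control a of day 1 and -314 TPM after rescaling by medians of ratios. The rule fixes that starved and control sums lie close, and no test of a sum is given.

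Features as abundant in roots as the members differed in how often they met the limit on d. Of the 356 features with at least 30 TPM in control roots and under 0.5 TPM in every leaf library, the 91 members were 25.6%. Of the 6184 with as high a root level and at least 0.5 TPM in some leaf library, 4614 (74.6%) met the same limit. The largest d over the 3 days had a median size of 0.84 in the first class and 0.32 in the second. In bands of control root level the shares were 27.9 against 78.7% at 30 to 60 TPM, 27.8 against 72.6% at 60 to 120 TPM and 11.8 against 68.6% from 120 TPM. No test of this difference was made. The spread within groups moved with it, with a median SD of 0.32 on the log2(TPM + 1) scale in the first class and 0.22 in the second, and its part was not tested. Members had 0.24, and the 265 others of the first class 0.34.

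**Figure D4:**
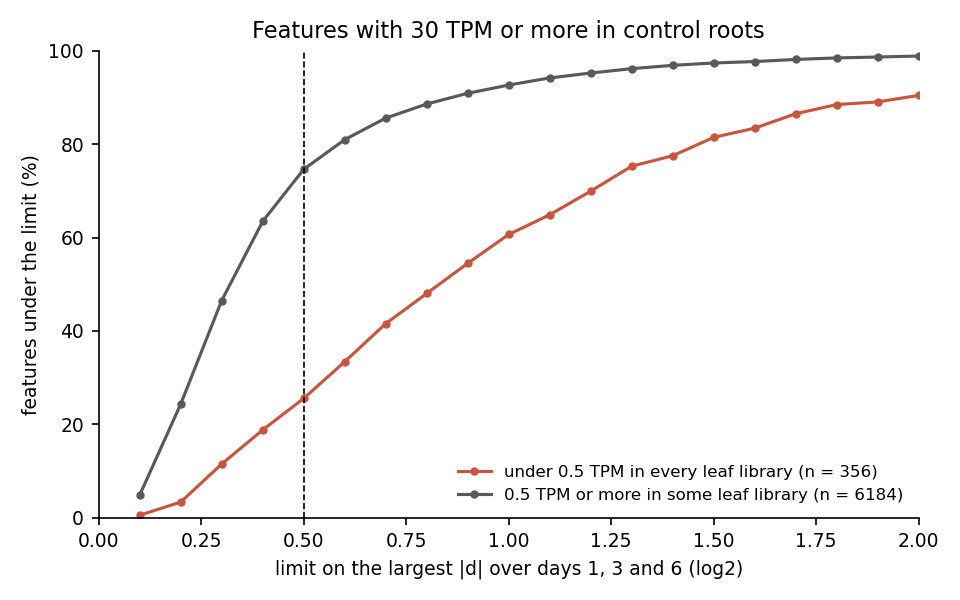
Share of features (vertical axis, percent) whose largest difference between starved and control roots over 3 days, in either direction, was under the limit on the horizontal axis (log2), for 356 features under 0.5 TPM in every leaf library and 6184 others, all with at least 30 TPM in control roots. At the dashed limit of 0.5 the shares were 25.6 and 74.6%.

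The 265 abundant root features that missed the limit on d did so on 1 day in 98 cases, on 2 days in 103 and on all 3 days in 64. Starved roots were higher by at least 0.5 for 54 and lower for 121 on day 1, higher for 43 and lower for 89 on day 3, and higher for 117 and lower for 72 on day 6. With the tissues exchanged, 87 features had at least 30 TPM in control leaves and under 0.5 TPM in every root library, and 68 of them (78.2%) met the limit in starved against control leaves. Coding length had a median of 948 bases for members and 951 for the 265, and members ranged from 210 to 3012 bases.

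The leaf limit left traces. None of the 91 members was at 0 in all 24 leaf libraries, and the number of leaf libraries above 0 ranged from 2 to 24, with a median of 10. All leaf libraries together held 3029 reads on the members, against 3055932 in the root libraries, of totals of 464090868 and 450383550 reads. A member's mean leaf level was 0.013 to 0.65% of its mean root level, with a median of 0.059%. Bo7g081880 had the highest share, with 93 leaf reads in 22 libraries and at most 0.45 TPM. Bo7g040520 was above 0 in every leaf library, with 333 reads in all. Bo3g055240, at 53.0 TPM in control roots, had the lowest share and was above 0 in 2 leaf libraries.

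These leaf reads were unevenly spread over libraries. Leaf control d of day 3 held 367 reads on 81 of the members, and the other 3 libraries of its group held 64 to 115 reads on 33 to 43 members. Leaf starved d of day 6 held 306 reads and leaf control d of day 6 held 221 reads. The other 21 leaf libraries held 64 to 168 reads. The 265 abundant root features past the limit on d moved alongside. They summed to 32.7 TPM in leaf control d of day 3, against 5.52 to 8.89 TPM in the other controls of day 3. In leaf starved d of day 6 they summed to 32.6 TPM, against 8.94 to 16.3 TPM in the others of its group. In leaf control d of day 6 they summed to 21.6 TPM, against 6.20 to 11.2 TPM in the others of its group. The cause was not tested.

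**Figure D5:**
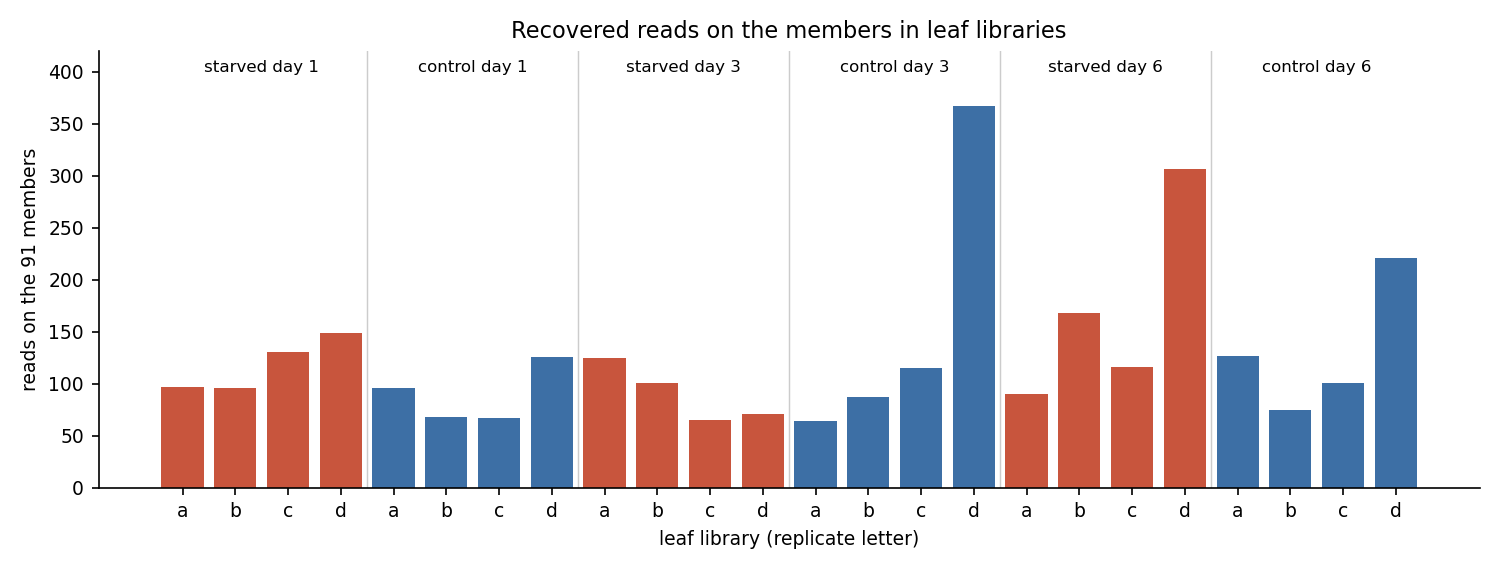
Reads recovered from the TPM values on the 91 members (vertical axis, from 0) in each of the 24 leaf libraries, starved left of control on each day. The bars of control d of day 3, starved d of day 6 and control d of day 6 stand at 367, 306 and 221 reads, above the 64 to 168 reads of the others.

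Near each limit, the members just inside and the features just outside differed little in the quantity that was limited. Bo7g106860 and Bo00629s060 entered with control root means of 30.25 and 30.298 TPM, while Bo4g200860 and Bo8g107450 met every other condition at 29.5 TPM each. Bo5g003500 and Bo7g040520 had leaf maxima of 0.498 and 0.484 TPM, and Bo4g024070 and Bo9g151820 just outside had 0.518 and 0.519 TPM. Those last features held 379.95 and 319 TPM in control roots, and the first of them thus more than any member. Bo5g130440 and Bo9g171930 were the members with the largest d in size, at 0.499 and 0.496, and Bo1g051800 and Bo01228s010 fell outside at 0.501 each.

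Neighbouring ID numbers were searched for among the members only, so how often other features have them is not known here. With gaps of at most 50 in the number, 1 pair was found, Bo7g113910 and Bo7g113940, at 62.5 and 35.2 TPM in control roots and with coding lengths of 1590 and 1578 bases. Around the pair, Bo7g113930 at 21.5 TPM, Bo7g113880 at 13.0 TPM and Bo7g113960 at 6.23 TPM were under 0.07 TPM in every leaf library too, with coding lengths of 1374, 1374 and 1386 bases. They missed the level of a member, and Bo7g113960 also fell outside the limit on d on day 6, at -1.16. Other features around the pair differed. Bo7g113890 and Bo7g113900 reached 2.13 and 2.99 TPM in a leaf library, with 1.42 and 2.57 TPM in control roots. Bo7g113950 had 0.17 TPM in control roots, and Bo7g113920 and Bo7g113970 were at 0 in control roots and in every leaf library. How reads that fit several similar genes were counted is not given in the sources used here, so the split of reads between such features is uncertain.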

How the data were processed

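Per the labels' protocols, broccoli RNA was purified on columns, treated with DNase and sequenced by DNBseq. STAR 2.7.10a, cutadapt 4.1, FastQC 0.11.9 and DESeq2 stand, without roles, in the submitters' processing notes. For the counter, genome build and annotation the sources used here give nothing. The values deposited by the authors are TPM in a single table, so each depends on what else its library holds. Whole reads and coding lengths were recovered from the TPM steps for each of the 44911 features with values in at least 2 libraries (largest deviation 0.00099 reads). On simulated data 99.99% of 19440 features were recovered exactly. These were features with values in several libraries and with a solution, so features with values in few libraries were not covered. Root libraries held 13819010 to 19735733 reads and leaf libraries 18350942 to 20160203.

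The 24 root libraries were fitted with limma 3.58.1 (R 4.3.3; lmFit, eBayes with trend) on log2(TPM + 1), a scale that understates changes of low features. The 29422 features that reached 1 TPM in 4 or more root libraries were tested, and all 91 members passed this filter. On simulated data for day 6 against day 1 in control roots, with 29112 features, 80% of 100 features changed by a fold of 2 were called and 0.062% of the unchanged. The simulated features all had the same relative spread, and only features with many reads were changed. No length trend or poor library was simulated, so the rates in the real libraries may differ. Members, lists and named features (the 8 most abundant, the largest called day changes without overlap, the smallest and largest SD, the nearest to each limit, neighbouring IDs and unusual ID forms) were chosen with earlier results of these data known. Alternatives were no filter, a pseudocount of 0.1, medians of ratios, voom on recovered reads, only the 2 groups, the replicate block, array weights, removal of the coding length trend, a log2 fold change of at least 1 and leaving out each library. Leaving out libraries of low array weight was chosen after seeing the data. Tables were made in Python 3.11.15.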

Additional observations from a re-analysis of the deposited data

Results flagged for a closer look

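Within groups of 4 libraries, 96 were searched for 1 library far from the rest, using Dixon's ratio with a critical value of 0.829, and 10 had one. Chance gives about 1 in 20 groups when the groups are independent. Most of these groups share the same root libraries, and some of the members were picked from these data. Nothing is therefore read from the number flagged. Control a of day 1 stood apart in 2 members, at 241 TPM in Bo1g123520 against 403 to 435 TPM in the other 3 controls, and at 245 TPM in Bo6g027630 against 161 to 175 TPM. Bo4g187180 had 62.1 TPM in control d of day 1 against 40.03 to 40.3 TPM in the others, and 21.3 TPM in starved d of day 1 against 38.4 to 40.5 TPM. Bo9g165750 had 67.3 TPM in control c of day 1 against 47.1 to 48.7 TPM. Bo9g171930 had 73.3 TPM in control b of day 6 against 50.4 to 51.2 TPM.

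In starved roots, Bo00886s020 had 96.4 TPM in library d of day 1 against 115 to 117 TPM, Bo4g013390 had 27.8 TPM in library a of day 1 against 48.6 to 49.6 TPM, and Bo8g059420 had 31.6 TPM in library c of day 6 against 43.7 to 44.5 TPM. The summed TPM of the members was 15.4 in leaf control d of day 3 against 2.96 to 4.62 in the other 3.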

How the results depend on the processing

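Each list gives members called, in the order day 6 against day 1, day 3 against day 1 and day 6 against day 3 in control roots, then starved against control roots on days 1, 3 and 6, where the reported counts are 7, 1, 2, 1, 3 and 4. Array weights gave 59, 28, 46, 24, 15 and 22, beside 54.2, 17.7, 53.0, 24.4, 17.5 and 27.1% of all features. Without the libraries of low array weight the counts were 25, 3, 13, 3, 5 and 11, beside 20.5, 1.64, 23.3, 8.36, 8.57 and 21.1%. With a log2 fold change of at least 1 they were 0 in all 6, beside 1.75, 0.493, 1.82, 2.75, 2.60 and 5.83%. With only the 2 groups they were 2, 0 and 4 in control roots between days and 0 for starvation on day 1, beside 2.49, 0, 14.197 and 4.80%. For day 3 against day 1, day 6 against day 3 and starvation on day 6, medians of ratios gave 4, 6 and 7, beside 1.59, 8.62 and 17.3%, and voom gave 3, 5 and 7, beside 1.77, 8.87 and 16.9%. Removal of the length trend gave 2, 9 and 10 there, beside 2.48, 11.6 and 19.5%, and 2 for starvation on day 1, beside 10.7%. The replicate block gave 9, 1, 3, 3, 3 and 5, beside 6.27, 1.63, 9.69, 8.94, 8.06 and 15.9%. Letters were to count as pairs where all 4 correlations of same-lettered libraries passed 0.1, and no comparison met this. For day 3 against day 1 they were 0.0925 to 0.286 and all 4 libraries correlated best with their own letter, a hint from the data and not the design. For day 6 against day 1 they were -0.489 to 0.686. Leaving out 1 library gave 3 to 15, 0 to 3, 1 to 3, 0 to 2, 1 to 5 and 3 to 7. The shares of all features then ran from 3.21 to 11.5, 0.660 to 1.42, 3.50 to 8.96, 6.11 to 9.06, 4.95 to 7.29 and 12.2 to 15.1%.

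The rule found 86 to 101 members without 1 library, 26 and 216 with limits on d of 0.25 and 1, 245 and 10 with root minima of 10 and 100 TPM, and 12 with a leaf limit of 0.1 TPM. It found 87 after rescaling, 80 of them shared. The summed TPM of control roots, day 6 minus day 1, was -916 to -450 without 1 library, -522 without the 5 most abundant members and -314 after rescaling. All 10 fold changes of members called between days kept their direction under 17 settings each, which leave out the log2 fold change of at least 1. Without a filter, with only the 2 groups and with the replicate block the fold change is the reported one by construction. The other settings reuse the same libraries, so nothing is read from the kept direction. The calls of Bo8g059420 (day 6 against day 1) and Bo8g100800 held in those 17 settings and were lost with a log2 fold change of at least 1. Causes were not tested.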

Other observations

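IDs that begin with Bo1g made up 16 of the 91 members (17.6%) and 37 of the 356 abundant root features under the leaf limit (10.39%), and IDs that begin with Bo2g made up 2 (2.20%) and 29 (8.15%). These shares were noticed after the values were seen and were not tested. The members of shortest coding length were Bo2g140290 with 210 bases and Bo8g082600 with 249 bases, and the longest was Bo1g101520 with 3012 bases.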
